A study of Mus musculus with 2 samples.

Results

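The genes of the tetraspanins, the prominins and the small L6 family were compared between Venus High and Venus Low luminal cells of the mouse mammary gland. The members were taken by name: every gene called Tspan with a number, Prom1, Prom2, the CD-named tetraspanins Cd9, Cd37, Cd53, Cd63, Cd81, Cd82 and Cd151, the uroplakins Upk1a and Upk1b, and Tm4sf1, Tm4sf4 and Tm4sf5. Of 34 such genes in the RefSeq gene table, 21 had at least 1 probe set of their own in the value table, out of 13869 genes in all. They were represented by 42 of its 29338 probe sets. Where a gene had several, the one with the highest mean over both arrays stands for it.

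Both cell populations came from 1 pool of mammary epithelial cells of 3 adult virgin female Tbx3+/Venus mice, 5 months old and on an FVB background. In this knock-in 1 Tbx3 allele carries the yellow fluorescent protein Venus in place of Tbx3, so Venus follows the activity of the Tbx3 locus and all cells of both populations are heterozygous for Tbx3. Luminal cells were gated on CD24 and CD49f after dead, CD45+ and stromal cells had been removed, and 200000 cells with high Venus and 200000 with low or no Venus were sorted. Each population was hybridized to 1 Affymetrix GeneChip mouse array. There were no replicates, so the differences below have no replicate check and no p-value, and a single array in each group limits the precision. CD49f, used in the gate, is the protein of the partner gene Itga6 described below.

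Tetraspanins are small proteins that span the membrane repeatedly and gather other surface proteins into microdomains, among them integrins, immunoglobulin-type receptors and membrane proteases. Several of them are abundant on the extracellular vesicles that epithelial cells release. Prominins are larger, cholesterol-binding glycoproteins of microvilli and other membrane protrusions. Prom1, also called CD133, has been used with Sca1 to separate hormone receptor-positive luminal cells of the mouse mammary gland. The L6 proteins have a similar shape but are not true tetraspanins.

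The values are log2 array signals with a floor at a signal of 10 (3.32 on the log2 scale), to which all lower signals had been set. On 12968 probe sets of the table the Venus High signal was above the Venus Low signal, on 16370 both lay at the floor, and on 0 was the Venus High signal below. Differences in this table therefore lie at or above 0 by construction. A member without a probe set in it was not analysed here and may be lower in Venus High cells or be missing for another reason. The 13 such members were Cd63, Cd81, Tm4sf1, Tm4sf4, Tspan2, Tspan5, Tspan6, Tspan7, Tspan8, Tspan10, Tspan12, Tspan15 and Tspan33. A gene with further probe sets may be represented here by a dimmer one. Among probe sets that reached a signal of 100 on either array, the median was 8.21 in the Venus High and 7.55 in the Venus Low population, and centring the arrays on these medians lowers every difference by 0.66. In a table without lower probe sets this shift is above 0 by construction, so a difference smaller than it turns negative after centring whatever the gene, and such a sign bears on no direction. The true scale between the arrays is unknown. Probe sets of 1 gene differed from each other in their log2 difference with a pooled SD of 0.31 over 1062 genes. This SD measures disagreement within these arrays and not the spread between animals. It may be too small, since the table holds no probe set lower in Venus High cells.

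The sort was checked on marker genes. Of the 5 hormone-sensing markers on the list, Prlr and Ly6a had no probe set in the table. The other 3, Esr1, Pgr and Foxa1, differed by at least 4-fold in favour of Venus High cells. Only the size of these differences is informative, since the table holds no probe set lower in Venus High cells. The 3 pan-luminal markers in the table, Krt8, Cdh1 and Krt19, reached log2 signals of 11.84 to 13.22 in both populations. Krt8 and Cdh1 differed by 0.09 and 0.19, and Krt19 was higher in Venus High cells by 0.98, at 12.94 against 11.96. The 5 alveolar markers on the list had no probe set in the table, so the sort was not checked on them. The 4 basal and 5 leukocyte markers with a probe set, Krt14, Trp63, Acta2 and Ptprc among them, lay at the floor in both populations. Of the endothelial markers Cdh5 and Tie1 lay at the floor too, and Kdr reached 3.78 in Venus High cells. Of the fibroblast markers Lum was at the floor, Col1a1 and Col1a2 reached 3.47 and 3.84 in Venus High cells, and Dcn had log2 signals of 6.01 in the Venus High and 4.89 in the Venus Low population. The part of Dcn-expressing cells in the differences below was not tested. The other listed markers of these cell types, Krt18, Epcam, Krt5, Csf1r, Pecam1 and Pdgfra, had no probe set in the table. Since the table holds no probe set lower in Venus High cells, admixture particular to the Venus Low population could not be seen here. Because the RNA came from sorted bulk cells, a change in the share of cells that express a gene and a change in the amount per cell cannot be told apart.

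To be counted as higher, a gene needed a 4-fold difference, 2 on the log2 scale, and a signal of at least 100 on the brighter array. Of the 21 members, 13 reached a signal of 100, and 5 of these 13 were counted as higher in Venus High cells. They were Tspan1, Prom1, Prom2, Tspan13 and Tspan9. The share was 38.5%, against 8.58% of the 3847 genes that reached this signal. At a 2-fold threshold 8 of the 13 passed, or 61.5%, against 21.6% of all genes. The median log2 difference of the 13 members was 1.29, and that of the 3847 genes was 0.46. After median centring these medians were 0.63 and -0.20. Of the 5 genes counted as higher, 4 passed the signal minimum through the Venus High array alone, so these shares describe the values in the table and carry no test.

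**Figure D1:**
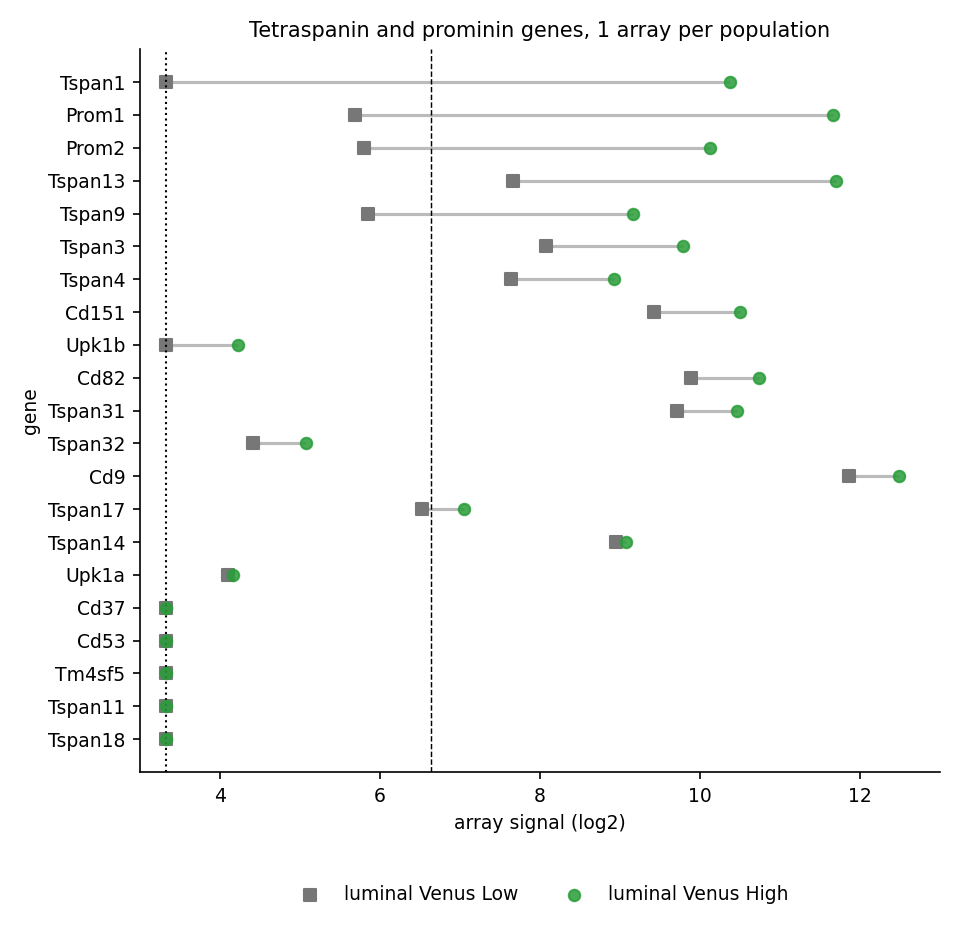
Array signal (log2, horizontal axis) of the 21 tetraspanin, prominin and L6 genes on the table, ordered by their difference, with green circles for Venus High and grey squares for Venus Low luminal cells, each from 1 array. A dotted line stands at the floor and a dashed line at a signal of 100. The widest gaps are those of Tspan1, Prom1, Prom2, Tspan13 and Tspan9, and 5 genes lie at the floor in both populations.

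The promoters of the 5 genes counted as higher are shown because these genes carried the largest differences. Each window runs from 250 bases before to 50 bases after the start of transcription, 5′ to 3′ on the strand of the gene, from RefSeq on GRCm38.p6. They were searched on both strands for the estrogen response half-site AGGTCA, the T-box motif AGGTGTGA, the forkhead motif TGTTTAC and the GATA motif AGATAA, with capitals marking each match. The factors that bind such motifs, the estrogen receptor, T-box proteins such as Tbx3, Foxa1 and Gata3, are known regulators of luminal cells. The window of Tspan1 lies at chr4:116167549-116167848, that of Prom1 at chr5:44101687-44101986, that of Prom2 at chr2:127541368-127541667, that of Tspan13 at chr12:36042429-36042728 and that of Tspan9 at chr6:128143529-128143828, all on the minus strand. Where RefSeq gives a gene several starts, as for Prom1 with 2 and Tspan9 with 4, the window nearest to the outer end of the gene is shown.
Tspan1: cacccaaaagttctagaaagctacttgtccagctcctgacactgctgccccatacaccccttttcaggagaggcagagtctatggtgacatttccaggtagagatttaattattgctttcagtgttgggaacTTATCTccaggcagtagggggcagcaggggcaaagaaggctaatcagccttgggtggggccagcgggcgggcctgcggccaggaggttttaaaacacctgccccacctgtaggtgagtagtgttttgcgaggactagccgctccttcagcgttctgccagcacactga
Prom1: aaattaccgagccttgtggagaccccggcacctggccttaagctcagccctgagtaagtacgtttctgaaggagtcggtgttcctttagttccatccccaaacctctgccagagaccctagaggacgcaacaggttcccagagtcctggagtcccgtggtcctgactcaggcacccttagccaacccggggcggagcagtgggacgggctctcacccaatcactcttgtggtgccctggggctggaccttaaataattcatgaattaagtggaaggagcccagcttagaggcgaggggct
Prom2: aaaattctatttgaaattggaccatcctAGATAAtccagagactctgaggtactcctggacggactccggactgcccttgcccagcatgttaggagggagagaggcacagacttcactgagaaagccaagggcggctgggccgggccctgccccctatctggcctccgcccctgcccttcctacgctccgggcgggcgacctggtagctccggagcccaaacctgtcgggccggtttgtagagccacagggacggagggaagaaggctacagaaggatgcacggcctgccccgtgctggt
Tspan13: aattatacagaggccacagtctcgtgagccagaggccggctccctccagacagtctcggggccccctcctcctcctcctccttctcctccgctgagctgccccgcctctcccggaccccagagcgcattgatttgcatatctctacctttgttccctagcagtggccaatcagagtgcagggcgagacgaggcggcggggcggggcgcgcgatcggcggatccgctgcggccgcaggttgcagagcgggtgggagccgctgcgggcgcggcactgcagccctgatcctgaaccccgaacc
Tspan9: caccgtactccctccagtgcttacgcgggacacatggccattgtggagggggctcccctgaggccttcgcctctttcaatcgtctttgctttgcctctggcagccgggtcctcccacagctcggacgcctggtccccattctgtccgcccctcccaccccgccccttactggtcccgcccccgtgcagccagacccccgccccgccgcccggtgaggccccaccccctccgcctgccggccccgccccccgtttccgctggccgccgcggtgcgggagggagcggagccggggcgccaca

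The GATA motif occurred once in the window of Tspan1, on the opposite strand, and once in that of Prom2. Of all 32851 promoter windows of this length, 11.2% held it. The half-site, the T-box and the forkhead motif were found in 0 of the 5 windows, and in 16.3%, 1.28% and 3.65% of all windows. A motif of this length also occurs where no factor binds, and its absence from a window of 300 bases says nothing about the factor. Among the 8 members that reached a signal of 100 without being counted as higher, Cd151 alone held any of these motifs, with 1 half-site. The windows also differed in base composition. GC content was 54.0% for Tspan1, 57.0% for Prom1 and 61.3% for Prom2, against 67.3% for Tspan13 and 73.3% for Tspan9. The ratio of observed to expected CpG dinucleotides was 0.28 for Tspan1 and 0.41 for Prom1, and 0.77 for Tspan13 and 0.74 for Tspan9. The median ratio was 0.53 over the 5 genes, 0.76 over the 8 others and 0.38 over all windows.

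Both prominins were counted as higher in Venus High cells. Prom1 had a log2 signal of 11.67 in the Venus High and 5.69 in the Venus Low population. On the linear scale this was 3260 against 51.7, a 63.0-fold difference. With the floor raised to a signal of 100 its log2 difference of 5.98 became 5.03. It had a single probe set in the table, whose name ends in _a_at, the suffix of probe sets that can detect several transcripts of a gene.

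Prom2, which encodes a prominin found mainly on protrusions of epithelial cells, had log2 signals of 10.12 and 5.80, a 20.0-fold difference. The log2 difference of 4.32 became 3.48 once the floor was raised to 100. With the median of the Prom2 probe sets it was at least 3.15, since that median takes in a floor value. Its other probe set lay below a signal of 100, at 5.29 in Venus High cells and at the floor in Venus Low cells, and differed by at least 1.97. Both Prom2 probe sets derive from the same source sequence. Both prominins thus stood well above the signal minimum in Venus High cells and below it in Venus Low cells.

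Tspan1 had the largest gap of the members in the table. This tetraspanin is found in secretory and other simple epithelia. Its log2 signal was 10.37 in Venus High cells and at the floor in Venus Low cells, so only a bound is known, at least 133-fold. The other Tspan1 probe set derives from the same source sequence. It reached 7.61 in Venus High cells and was also at the floor in Venus Low cells, a log2 difference of at least 4.29. The Venus High signals of the 2 probe sets lay 2.76 apart on the log2 scale, and since both differences are bounds, how far they disagree is unknown. Once the floor was raised to 100 the difference of Tspan1 was 3.73, below that of Prom1 and of Tspan13.

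Tspan13, also called NET-6, had log2 signals of 11.70 in the Venus High and 7.66 in the Venus Low population, a 16.5-fold difference. It was the one gene of the 5 whose signal passed 100 on both arrays, at 3322 and 202, so a floor at 100 left its difference of 4.04 as it was. Its second probe set, from the same source sequence, gave 11.71 and 7.13, a difference of 4.58. The Venus High signals of the 2 probe sets were close, and the gap of 0.54 between their differences came from the Venus Low array.

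Tspan9, a tetraspanin known from megakaryocytes and platelets, had log2 signals of 9.17 and 5.85, a 9.95-fold difference, or 2.53 on the log2 scale once the floor was raised to 100. A second probe set below a signal of 100 had 5.32 in Venus High cells and the floor in Venus Low cells, a difference of at least 1.99. Its chromosomal neighbour Tspan11, with no other protein-coding gene between them, was at the floor on all 4 of its probe sets.

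**Figure D2:**
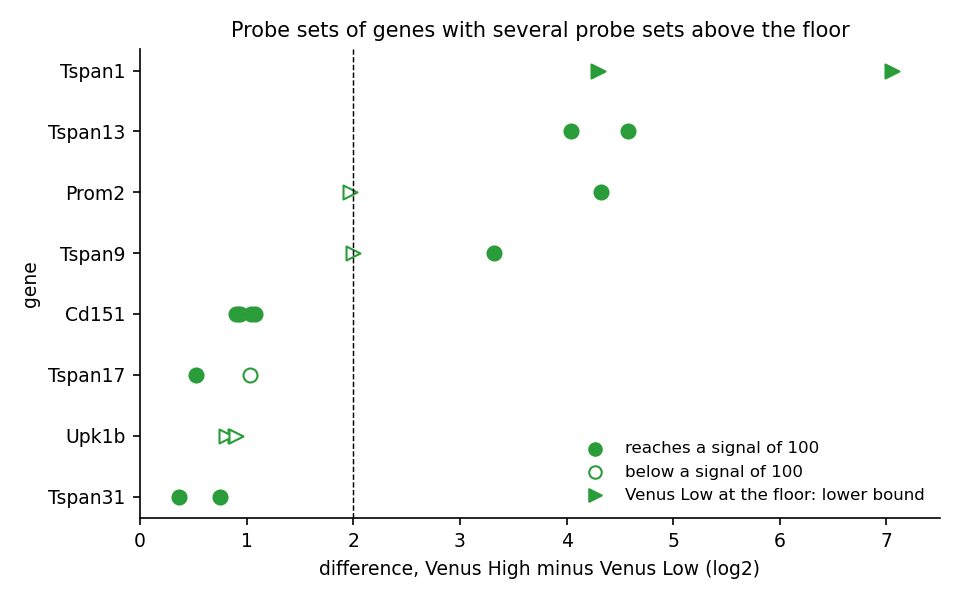
Difference between Venus High and Venus Low luminal cells (log2, horizontal axis) for each probe set of the members that had several probe sets above the floor. Filled symbols reached a signal of 100, open symbols did not, triangles are lower bounds because Venus Low was at the floor, and the dashed line marks a 4-fold difference. Both probe sets of Tspan1 and of Tspan13 lie above 4, and those of Cd151 that reached a signal of 100 lie between 0.90 and 1.08.

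Between 2-fold and 4-fold higher were Tspan3, Tspan4 and Cd151. Tspan3 had log2 signals of 9.79 in the Venus High and 8.08 in the Venus Low population, a 3.28-fold difference. Tspan4, which is needed for migrasomes, vesicles that migrating cells leave behind on their retraction fibres, had 8.92 and 7.63, a 2.45-fold difference. Cd151, which binds the laminin receptors made from integrins alpha 3 and alpha 6, had 10.50 and 9.43, a 2.11-fold difference. Over its 4 probe sets above the signal minimum the differences ran from 0.90 to 1.08. With the median of the Cd151 probe sets the difference was 0.91, and without _a_at, _s_at and _x_at probe sets it was 0.90. Both are below 2-fold, so its place in this group depends on the probe set used.

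After median centring Tspan3 alone of these genes kept a difference above 1, at 1.05, and Tspan4 and Cd151 had 0.63 and 0.42. Tspan4 and Cd151 are near neighbours on chromosome 7, with 1 protein-coding gene, Polr2l, between them. Tspan18 and Cd82 on chromosome 2 are neighbours too, but Tspan18 was at the floor in both populations.

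The other CD-named tetraspanins in the table differed by less than 2-fold. Cd82, also known as Kai1 and as a suppressor of metastasis, had log2 signals of 10.74 and 9.89 and so differed by 0.85. Cd9, a widely expressed tetraspanin that eggs need for fusion with sperm, had 12.49 and 11.86, a difference of 0.63. This difference, smaller than the shift, was -0.03 after median centring and 0.10 after quantile normalization. Tspan31 had 10.46 and 9.71, a difference of 0.75 that was 0.09 after median centring, and its second probe set differed by 0.36. Cd63 and Cd81, the other tetraspanins often used as vesicle markers, were not analysed here.

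The TspanC8 group takes its name from the cysteines in its large outer loop and escorts the protease ADAM10 to the cell surface. The table held 2 of its 6 genes. Tspan14 had log2 signals of 9.07 in the Venus High and 8.95 in the Venus Low population. Its difference of 0.13 lay below the SD between probe sets and was -0.53 after median centring. Tspan17 had 7.05 and 6.52, a difference of 0.52 that was -0.13 after median centring, and another probe set below a signal of 100 differed by 1.03. Tspan5, Tspan10, Tspan15 and Tspan33 were not analysed here.

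**Figure D3:**
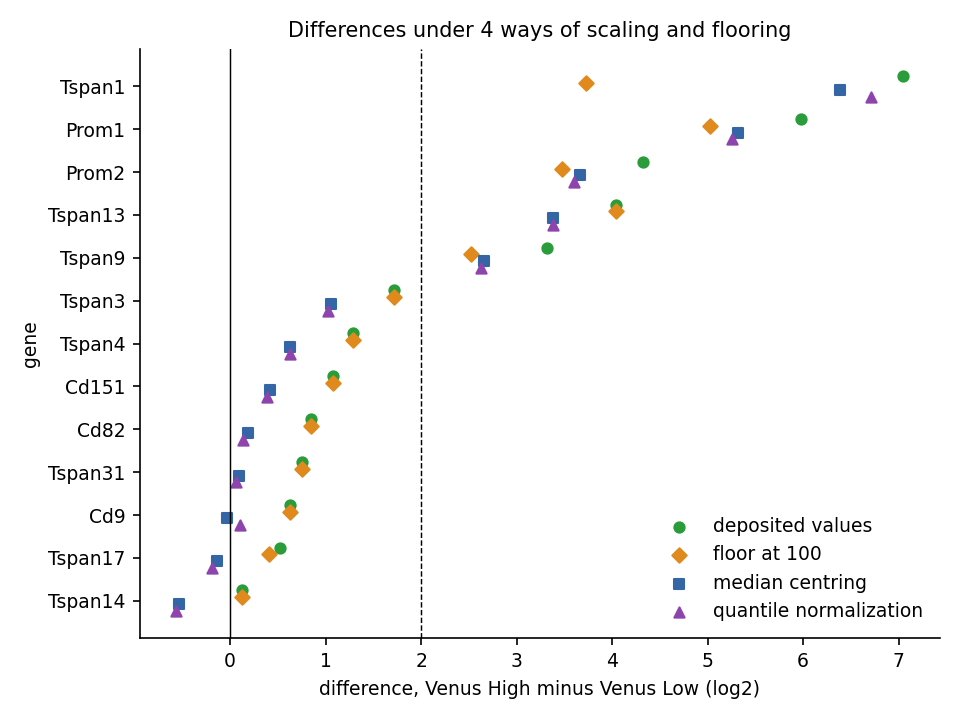
Difference between Venus High and Venus Low luminal cells (log2, horizontal axis) of the 13 members that reached a signal of 100, from the deposited values, once the floor was raised to 100, after median centring and after quantile normalization. The dashed line marks a 4-fold difference. The 5 genes at the top stay to its right in all 4 cases, and Cd9, Tspan17 and Tspan14, whose differences are smaller than the shift of 0.66, fall below 0 after median centring.

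The remaining 8 members stayed below a signal of 100. The uroplakins Upk1a and Upk1b, which form the plaques of the bladder lining together with Upk2 and Upk3a, had log2 signals in Venus High cells of 4.16 and 4.22. In Venus Low cells Upk1a had 4.10 and Upk1b was at the floor. Tspan32, a tetraspanin of blood cells, had 5.07 and 4.41 on 1 probe set and the floor on both arrays on the other. The leukocyte tetraspanins Cd37 and Cd53 were at the floor in both populations on both of their probe sets. Tspan11, Tspan18, a gene known from endothelial cells, and Tm4sf5, the one L6 gene in the table, were at the floor as well.

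**Figure D4:**
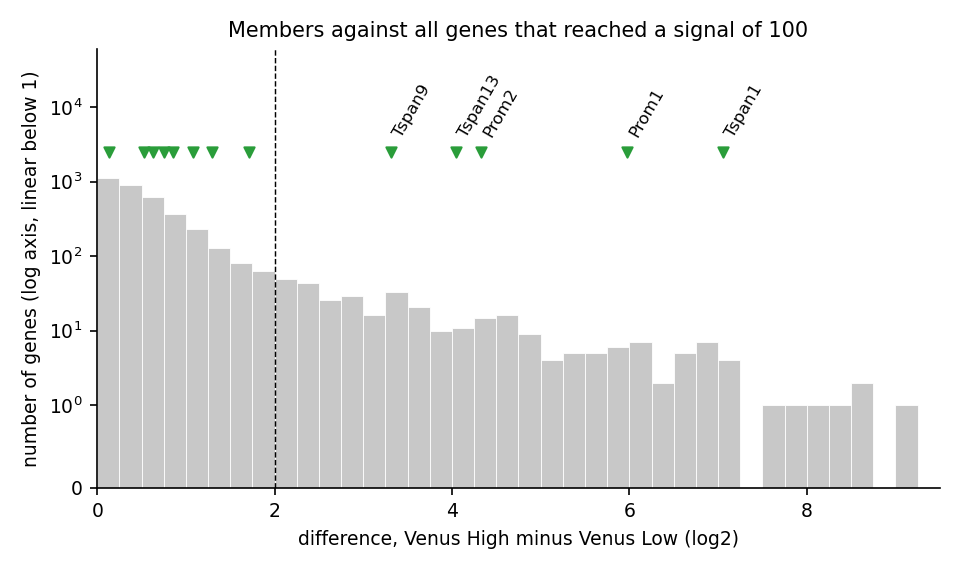
Number of genes (vertical axis, log scale, linear below 1) by their difference between Venus High and Venus Low luminal cells (log2, horizontal axis), for the 3847 genes that reached a signal of 100. Green triangles mark the 13 members among them, at a height without meaning, and the dashed line marks a 4-fold difference. The 5 named members lie to the right of it, where 8.58% of all genes lie.

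Genes of tetraspanin partners were examined next, as 13 membrane partners and 7 genes of vesicle release. The table held 16 of these 20 genes. A signal of 100 was reached by 11, and 4 of the 11 were counted as higher, 36.4% against the 8.58% of all genes. Upk3a and Rab27b, 2 of these 4, passed the signal minimum through the Venus High array alone. The count was 3 of 11 once the floor was raised to 100, and 2 of 10 with the median probe set of each gene. It was 1 of 11, Upk3a, after median centring and after quantile normalization. The 8.58% belongs to the deposited values, and no share of all genes is given under these settings. The median log2 difference of the 11 was 0.60, or -0.06 after median centring. Epcam, Cldn7, Sdcbp and Pdcd6ip were not analysed here.

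Adam10, the protease that TspanC8 proteins escort, had log2 signals of 11.56 in the Venus High and 9.44 in the Venus Low population, a 4.36-fold difference whose log2 value of 2.13 became 1.47 after median centring. Of its other probe sets, one differed by 2.47, one, at the floor in Venus Low cells, by at least 2.56, and one was at the floor in both populations. The related protease gene Adam17 stayed below a signal of 100, with 4.97 and 4.96. Adam10 thus differed more than either of its TspanC8 escorts in the table, by 2.13 on the log2 scale against 0.13 for Tspan14 and 0.52 for Tspan17. This gap does not depend on the scale between the arrays when that scale is a shift common to all genes.

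Ptgfrn, an immunoglobulin-type protein that binds Cd9 and Cd81, had log2 signals of 9.32 and 7.13, a 4.56-fold difference. Its log2 difference of 2.19 was 1.53 after median centring and 1.36 with the median probe set. Igsf8, which belongs to the same family and binds the same tetraspanins, had 7.78 and 7.37, a difference of 0.41. Of the integrin partners of Cd151, Itga6 had 10.28 and 9.73, Itgb4 had 6.99 and 6.69, and Itga3 had 6.91 and 6.84. All 3 differences were smaller than the shift of the centring. Another Itga3 probe set, below a signal of 100, had 4.68 in Venus High cells and the floor in Venus Low cells. It differed by at least 1.35, and the remaining Itga3 probe set was at the floor in both populations. Itgb1 stayed below a signal of 100.

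Among the uroplakins that pair with Upk1a and Upk1b, Upk3a had a log2 signal of 8.93 in Venus High cells and was at the floor in Venus Low cells, at least 48.7-fold higher, or 2.28 on the log2 scale once the floor was raised to 100. Upk2 had 5.88 in Venus High cells and the floor in Venus Low cells, below the signal minimum. Upk3b was at the floor in both populations. Upk3a was therefore counted as higher although neither Upk1a nor Upk1b reached a signal of 100.

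Of the vesicle genes, Rab27b, a small GTPase that docks vesicles for release, had log2 signals of 7.69 and 5.64, a 4.14-fold difference that became 1.05 on the log2 scale once the floor was raised to 100 and 1.39 after median centring. Its 3 other probe sets differed by 0.85, 1.82 and 2.42. Its relative Rab27a had 3.84 in Venus High cells, near the floor. Tsg101, a component of the ESCRT machinery that sorts cargo into vesicles, had 8.48 and 7.40, a 2.12-fold difference. Chmp4b and Rab11a differed by 0.60 each, which median centring turned into -0.06.

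**Figure D5:**
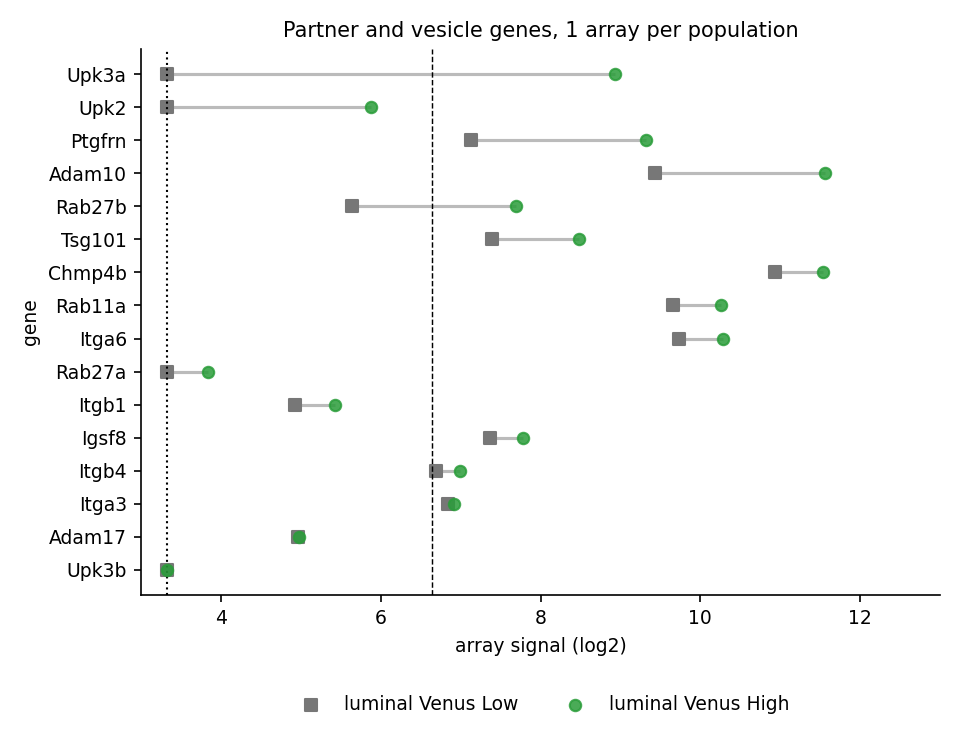
Array signal (log2, horizontal axis) of the 16 partner and vesicle genes on the table, ordered by their difference, with green circles for Venus High and grey squares for Venus Low luminal cells, each from 1 array. A dotted line stands at the floor and a dashed line at a signal of 100. Upk3a, Ptgfrn, Adam10 and Rab27b reached a signal of 100 with a difference of at least 2.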

How the data were processed

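Array signals of 2 samples, 1 array each, were analysed. Per the labels and the methods, the authors deposited log2 signals, normalized and centred sample by sample with BRB Array software. MAS5 appears in the submitters' processing notes. How the normalization was scaled was not stated, and whether it sets a common scale between the arrays is unknown, which affects every difference. The platform annotation pairs 22223 probe sets with a single gene symbol and 602 with several, and leaves 6513 out. By gene identifier, 22060 of the first were found in RefSeq's GRCm38.p6 gene table, and 0 symbols changed. The table holds 0 columns of other samples.

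Each gene was represented by its brightest probe set. With 1 array per group no test was made. The rule named every member that reached a signal of 100, and the 5 partner genes with the largest differences. Further genes were named after their values were seen. The members, lists and promoter motifs were chosen with earlier results of these data known. The alternatives were median centring, quantile normalization, floors at 32 and 100, the median probe set, leaving out _a_at, _s_at and _x_at probe sets, signal minimums of 50, 200 or none, and thresholds of 2-fold and 8-fold. Python 3.11.15, numpy 2.4.6, pandas 2.3.3 and matplotlib 3.10.9 were used, and the computation was tested on simulated data.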

Additional observations from a re-analysis of the deposited data

How the results depend on the processing

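The count of 5 members at least 4-fold higher stayed at 5 under median centring, quantile normalization, both raised floors, the median probe set, each signal minimum and the 8-fold threshold. It was 4 without _a_at, _s_at and _x_at probe sets, where Prom1 had none left and Tspan1 differed by at least 4.29. At the 2-fold threshold it was 8, where 21.6% of all genes passed. The 8.58% of all genes belongs to the 4-fold threshold on the deposited values. No share of all genes is given for the other settings, so the counts under them are not set against one here. The members' median log2 difference was 0.63 under median centring, 0.63 under quantile normalization and 0.75 where no signal minimum was set. The partner count of 4 fell to 1, Upk3a, after median centring, after quantile normalization and at the 8-fold threshold. With the median probe set it fell to 2 of 10 genes. Quantile normalization gives both arrays the same distribution. In a table without lower probe sets it therefore lowers the differences on the whole by construction, as median centring does. Of the 13 members that reached a signal of 100, Cd9, Tspan14 and Tspan17 were negative after median centring, as any difference below its shift of 0.66 must be. No paired analysis was possible because each group has 1 array. The spread between animals is unknown, and signals near the floor give only bounds.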
